A study of Homo sapiens with 11 samples.

Results

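Transcripts of 8 enzymes were followed across the treatment groups: ASNS, GPT2, PCK2, GOT1, GOT2, PYCR1, ALDH18A1 and GLUL. Apart from PCK2 they make non-essential amino acids, or their precursors, from glutamate, aspartate and pyruvate, and PCK2 makes phosphoenolpyruvate (PEP) from oxaloacetate. The enzymes were chosen by symbol, and 8 of the 27671 genes in the count table carry these symbols. All 8 passed the filter on low counts, as did 15591 genes in all. Their counts ranged from 689 to 9612 per gene and library.

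The cells were HEK293T, an immortal line from human embryonic kidney in which the large T antigen of SV40 is expressed. There were 3 libraries of cells given the compound A8 at 10 µM together with ISRIB, 3 given A8 at 10 µM, 2 given ISRIB with the vehicle DMSO (called ISRIB alone here), and 3 given DMSO. Per the labels, the submitters left out another ISRIB library for its quality. Sample titles state 8 h of treatment and the treatment protocol states 4 h, and the concentration of ISRIB is not given in the sources used here. The study concerns the integrated stress response and, per its title, its activation through the RNA sensor RIG-I. The design text calls the replicates biological without saying how they were grown apart, so p-values measure the spread between these libraries.

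In the integrated stress response, phosphorylated eIF2 inhibits its exchange factor eIF2B, general translation slows, and the transcription factor ATF4 is translated more. ATF4 is known to induce genes of amino acid uptake and synthesis, with ASNS among its classic targets. ISRIB binds eIF2B and blunts this response. Glutamate links the amino acid enzymes: it donates its amino group to pyruvate and oxaloacetate, is amidated to glutamine, and is the carbon source of proline.

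Libraries held 34072107 to 35318111 counts, with 17892 to 18017 genes detected in each. The largest single share, that of the mitochondrial gene COX1, was 1.76% to 2.26% of counts with A8 and 1.37% to 1.99% with DMSO. The intermediate filament gene VIM, which this line expresses strongly, was at 625 to 748 CPM (counts scaled to each library's total for these markers, and with TMM factors as well in all later values), and PAX2, a kidney lineage gene, at 0.982 to 2.15 CPM. The blood and endothelial markers PTPRC, CD3E and PECAM1 had 0 counts in all 11 libraries. Over 10 markers of other cell types the summed level was 17.6 to 20.4 CPM with A8 and 21.0 to 24.5 CPM with DMSO, nearly all of it COL1A1, and the part of this in the results was not tested.

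The first comparison asked what A8 did relative to DMSO. Among the enzymes, ASNS and PCK2 rose with A8, GPT2 was higher in each A8 library without passing the test, and GOT1, GOT2, GLUL, PYCR1 and ALDH18A1 had intervals around 0. By edgeR's quasi-likelihood test, with p-values adjusted over all 15591 genes and a threshold of 0.05, 2 of 8 enzymes were called higher and 0 lower, against 0.0834% of all genes called higher and 0.0577% called lower. Their median log2 fold change was 0.06, against 0.01 over all genes. Levels are relative to the rest of the transcriptome. Each library averages over its cells, so more responding cells and more RNA per cell cannot be told apart.

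ASNS encodes asparagine synthetase, which moves the amide nitrogen of glutamine onto aspartate. Its level was 280.2, 242 and 249 CPM in the A8 libraries, against 161, 163 and 149 CPM in the DMSO libraries. The lowest A8 library was well above the highest DMSO library. The rise was 0.70 on the log2 scale (edgeR adjusted p = 4.46e-05, SE 0.07), or 1.63-fold with a 95% interval of 1.48 to 1.79. ASNS ranked 2 of all genes tested by p-value.

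Promoters came from the set of RefSeq sequences (build GRCh38.p14) used here, and that set held 6 of the 8 enzymes, without GPT2 and PYCR1. They were searched on both strands, over 300 bases around the start, for TGATGNAAN, a general form of the C/EBP-ATF response element through which ATF4 is known to act. Start sites of ASNS and GOT1 had a match, and 3.61% of all 35116 promoter windows had one. The 250 bases before the start are given for both, for PCK2 as the enzyme with the largest change, and for ALDH18A1 as the one with the smallest, with the matched bases in capitals. Those of ASNS lie at chr7:97872409-97872658 (minus strand), of GOT1 at chr10:99430625-99430874 (minus strand), of PCK2 at chr14:24094061-24094310 (plus strand) and of ALDH18A1 at chr10:95656712-95656961 (minus strand).
ASNS: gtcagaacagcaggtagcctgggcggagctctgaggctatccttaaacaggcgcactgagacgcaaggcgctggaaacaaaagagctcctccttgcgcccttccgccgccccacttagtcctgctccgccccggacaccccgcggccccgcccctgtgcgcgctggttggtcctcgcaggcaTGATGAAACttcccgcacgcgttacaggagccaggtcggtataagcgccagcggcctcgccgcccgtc
GOT1: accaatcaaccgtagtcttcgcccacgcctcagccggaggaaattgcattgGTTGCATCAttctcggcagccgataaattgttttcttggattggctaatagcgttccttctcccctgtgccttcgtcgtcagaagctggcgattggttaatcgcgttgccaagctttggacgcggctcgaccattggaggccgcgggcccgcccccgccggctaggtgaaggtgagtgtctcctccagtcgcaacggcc
PCK2: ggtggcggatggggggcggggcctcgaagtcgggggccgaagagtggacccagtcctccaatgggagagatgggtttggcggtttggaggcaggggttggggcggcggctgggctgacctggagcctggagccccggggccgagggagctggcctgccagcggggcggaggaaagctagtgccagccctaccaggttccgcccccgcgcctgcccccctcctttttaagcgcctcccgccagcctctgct
ALDH18A1: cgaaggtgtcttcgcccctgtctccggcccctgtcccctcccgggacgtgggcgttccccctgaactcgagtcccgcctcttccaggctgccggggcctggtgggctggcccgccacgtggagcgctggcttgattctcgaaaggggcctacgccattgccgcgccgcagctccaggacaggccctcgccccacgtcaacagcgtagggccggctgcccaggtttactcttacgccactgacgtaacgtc

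In ASNS the match, TGATGAAAC, begins 68 bases before the first of its 2 listed starts and reads along the gene, and the window of the other start had none. In GOT1 the match, TGATGCAAC, lies on the opposite strand, 199 bases before the start, so GOT1 holds a match while its transcript had a log2 fold change of only 0.06 with A8. PCK2, with the largest change of the 8, had no match in its window. A match is a description of letters and no evidence of binding.

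PCK2 encodes the mitochondrial PEP carboxykinase, which turns oxaloacetate into PEP. Its level was 60.3, 50.4 and 41.7 CPM in the A8 libraries, against 27.6, 28.1 and 27.0 CPM in the DMSO libraries. All A8 libraries lay above all DMSO libraries, but they were spread widely, with an SD of 18.3% of the mean against 1.92% for DMSO. The rise was 0.88 on the log2 scale (edgeR adjusted p = 0.000292, SE 0.10), or 1.85-fold with an interval of 1.59 to 2.15. It was 0.74 without A8 1 and 1.01 without A8 3, and was called in both cases. The annotated locus of NRL overlaps PCK2 on the other strand, and NRL had only 11 to 24 counts per library, set against 689 or more for each enzyme. The cytosolic form, PCK1, had 24 counts over all 11 libraries and was not tested.

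GPT2 encodes the mitochondrial alanine aminotransferase, which makes alanine from pyruvate and glutamate. Its level was 77.1, 68.2 and 68.9 CPM in the A8 libraries, against 59.2, 54.0 and 56.9 CPM in the DMSO libraries, with no overlap. Its log2 fold change of 0.33 (SE 0.07), or 1.26-fold (interval 1.14 to 1.39), was not called in edgeR, at adjusted p = 0.0652. The DESeq2 Wald test (adjusted p = 0.00112), edgeR without a filter on low counts (adjusted p = 0.0141) and edgeR with the trend in GC content removed (adjusted p = 0.0146) called it. Fits of only the 2 groups (edgeR adjusted p = 0.104) and with each library left out (edgeR adjusted p from 0.101 to 0.315, the highest without A8 1) did not. In the authors' deposited table GPT2 had a log2 fold change of 0.33 with an adjusted p of 0.00117. The libraries behind that table are not stated and may differ from those used here. The ratio of GPT2 to ASNS counts within a library was 0.275 to 0.282 with A8 and 0.331 to 0.382 with DMSO, and these ranges did not overlap. The cytosolic form, GPT, averaged 1.13 ± 0.21 CPM with A8 and 1.13 ± 0.21 CPM with DMSO (SD, n = 3 each).

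**Figure D1:**
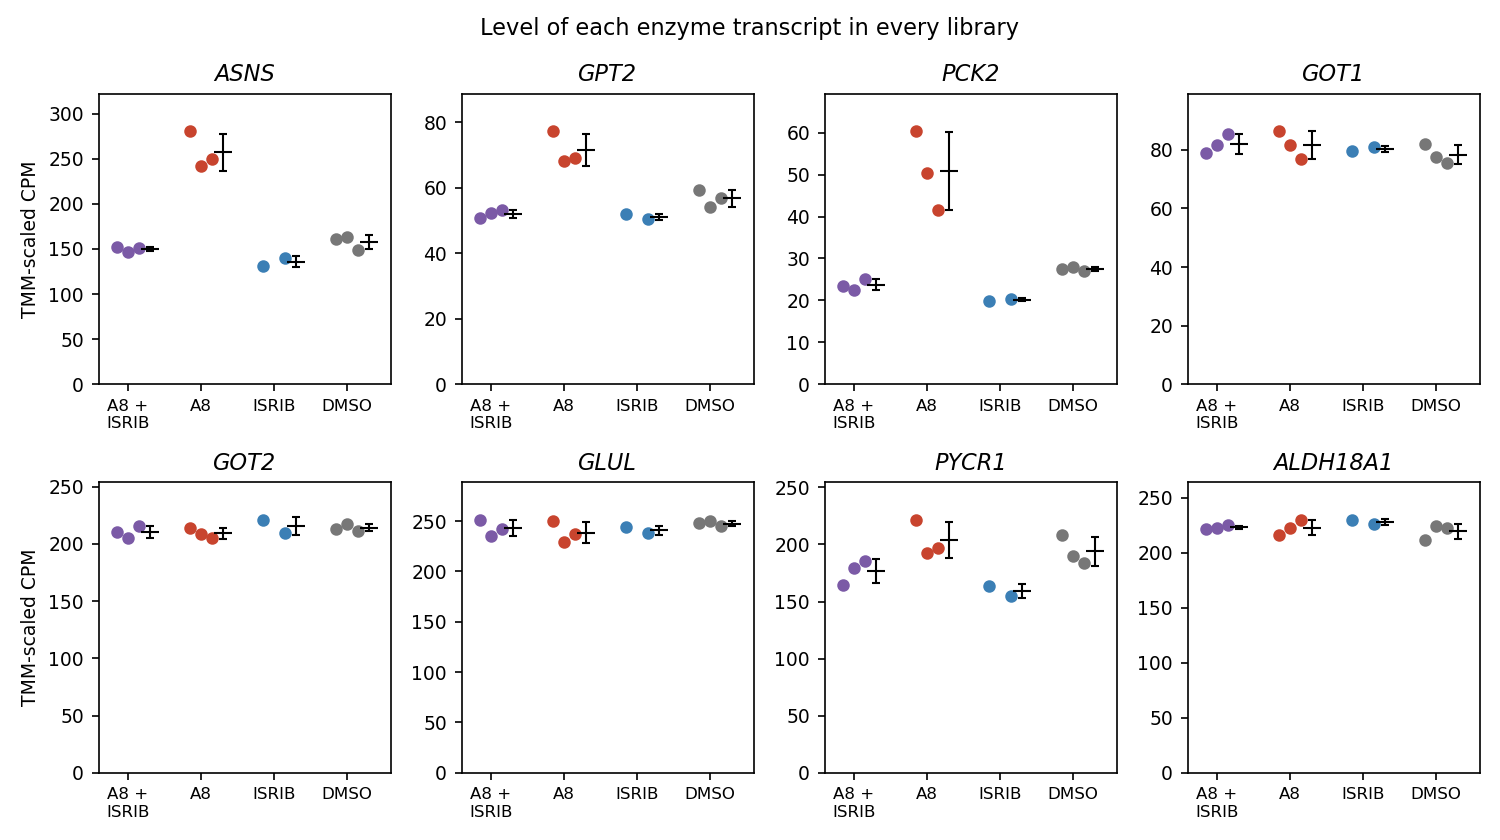
TMM-scaled CPM (y axis, from 0) of each enzyme in every library (points), by group, with the mean and SD beside them in black. ASNS, GPT2 and PCK2 stand highest in the 3 A8 libraries. The means of these enzymes and of PYCR1 are lowest with ISRIB alone, and the other 4 enzymes lie level across groups.

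In all, 3 of 8 enzymes had A8 libraries entirely above the DMSO libraries, against 8.47% of all genes, and 0 lay entirely below, against 8.13%. The A8 library numbered 1, A8 1, held the highest A8 value of every enzyme except ALDH18A1. Without it the log2 fold changes with A8 were 0.64 for ASNS, 0.27 for GPT2 and 0.00 for PYCR1.

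Neither aminotransferase of aspartate was called. GOT1, the cytosolic form, and GOT2, the mitochondrial form, interconvert aspartate and oxaloacetate and belong to the malate-aspartate shuttle. GOT1 had 86.3, 81.6 and 77.0 CPM in the A8 libraries, against 82.1, 77.5 and 75.6 CPM in the DMSO libraries, and the ranges overlapped. Its log2 fold change was 0.06, with an interval of -0.08 to 0.19. GOT2 had 214, 208 and 205 CPM with A8, against 213, 217 and 212 CPM with DMSO, a log2 fold change of -0.03 with an interval of -0.15 to 0.08. Across the 11 libraries the ratio of GOT1 to GOT2 counts stayed between 0.357 and 0.403.

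GLUL, the glutamine synthetase, which supplies the amide donor that ASNS uses, was at 249.6, 229 and 237 CPM with A8, against 248, 249.6 and 245 CPM with DMSO. The ranges overlapped, and the log2 fold change of -0.05 had an interval of -0.17 to 0.06. Pseudogenes of ASNS, GOT2 and GLUL are annotated, and the deposited counts do not show how reads shared with them were assigned.

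Proline is made from glutamate by ALDH18A1, which carries out the first step, and by PYCR1, a mitochondrial reductase that carries out the last. ALDH18A1 was at 217, 222 and 229.9 CPM with A8, against 212, 225 and 222 CPM with DMSO, a log2 fold change of 0.02 with an interval of -0.09 to 0.13. PYCR1 was at 222, 192 and 197 CPM with A8, against 208, 189.9 and 184 CPM with DMSO, a log2 fold change of 0.07 with an interval of -0.08 to 0.22. With the GC trend removed PYCR1 had 0.14, and without DMSO 1 it had 0.12, neither of them called. Both pairs of ranges overlapped. MYADML2, whose locus overlaps PYCR1, had 0 to 9 counts per library. For the 5 enzymes GOT1, GOT2, GLUL, ALDH18A1 and PYCR1 the upper bound of the change with A8, before any GC correction, was at most 1.16-fold, that of PYCR1, and the lower bound at least 0.889-fold, that of GLUL.

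The second question was what ISRIB did where A8 was present. All 3 enzymes that stood high with A8 fell when ISRIB was added, to a level near that of the DMSO libraries. By edgeR 3 of 8 were called lower in A8 with ISRIB against A8, and 0 higher, against 0.16% of all genes called lower and 0.0192% called higher. At an unadjusted p under 0.05 there were 4 of 8, against 5.91% of all genes. All 4, ASNS, PCK2, GPT2 and PYCR1, had libraries entirely below those of A8, against 5.98% of all genes, and 0 lay entirely above, against 5.09%. The A8 libraries enter this comparison as well as the first, so the values are given side by side and the overlap of calls is not used.

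ASNS was at 152, 147 and 150.5 CPM with A8 and ISRIB, against 280.2, 242 and 249 CPM with A8. It fell by 0.78 on the log2 scale (edgeR adjusted p = 5.18e-06, SE 0.07), to a level 0.583 times that with A8. PCK2 was at 23.5, 22.5 and 25.1 CPM with A8 and ISRIB, against 60.3, 50.4 and 41.7 CPM with A8. Its log2 fold change of -1.10 (edgeR adjusted p = 1.65e-05, SE 0.10) was the largest of the 8, and it was -0.96 without A8 1. The highest PCK2 value under both compounds was still below the lowest with DMSO.

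GPT2 was at 50.6, 52.3 and 53.0 CPM with A8 and ISRIB, against 77.1, 68.2 and 68.9 CPM with A8. This fall of 0.46 on the log2 scale (edgeR adjusted p = 0.00333, SE 0.07) was called in every fit that left out 1 library. PYCR1 was at 165, 179 and 186 CPM with A8 and ISRIB, against 222, 192 and 197 CPM with A8, also with no overlap. Its log2 fold change of -0.20 (SE 0.07) had an adjusted p of 0.60 in edgeR and was not called. GOT1, GOT2, GLUL and ALDH18A1 had log2 fold changes between 0.00 and 0.03 here, with interval bounds between -0.13 and 0.14.

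**Figure D2:**
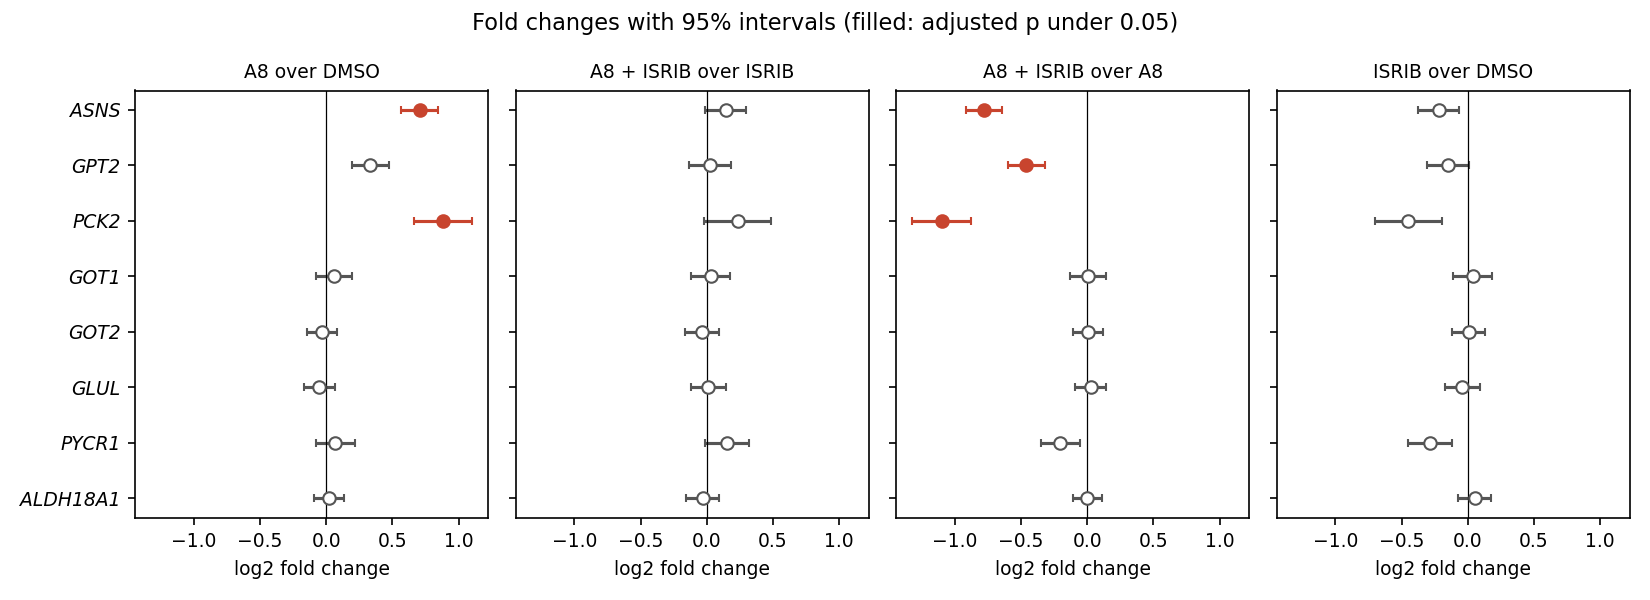
Log2 fold changes (x axis) of the 8 enzymes with 95% intervals from edgeR, 1 panel per comparison, filled where the adjusted p was under 0.05. ASNS and PCK2 lie to the right with A8 over DMSO, ASNS, GPT2 and PCK2 lie to the left when ISRIB was added to A8, and GOT1, GOT2, GLUL and ALDH18A1 sit near 0 in each panel.

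Lower values of the same genes, none of them called, were also seen without A8. In ISRIB alone against DMSO edgeR called 0 of 8 enzymes and 0% of all genes, 3 of 8 enzymes had an unadjusted p under 0.05 (9.58% of all genes), and the DESeq2 Wald test called 0 of 8. PCK2 was at 19.9 and 20.4 CPM with ISRIB alone, against 27.6, 28.1 and 27.0 CPM with DMSO, a log2 fold change of -0.45 (edgeR adjusted p = 0.342, SE 0.12). PYCR1 was at 163 and 155 CPM with ISRIB alone, against 208, 189.9 and 184 CPM with DMSO, a log2 fold change of -0.28 (edgeR adjusted p = 0.356, SE 0.08). Its adjusted p was 0.0736 by the DESeq2 Wald test and 0.171 by edgeR without a filter on low counts. ASNS was at 131 and 140.0 CPM with ISRIB alone, against 161, 163 and 149 CPM with DMSO, a log2 fold change of -0.22 (edgeR adjusted p = 0.41, SE 0.07). For these 3 genes the ISRIB libraries lay below all DMSO libraries. GPT2 and GLUL also had no overlap, at -0.15 and -0.04, so 5 of 8 enzymes lay entirely below, against 15.1% of all genes. ALDH18A1 lay entirely above, at 0.05, against 13.9%.

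Across 14383 genes, which are not independent replicates, Spearman correlation of these values with transcript GC content was -0.466, and its part in the values was not tested beyond the refit given next. PYCR1 and PCK2 are GC-rich, at 61.8% and 61.6% of bases, higher than in 88.0% of the genes tested or more. With the GC trend of each library removed, PYCR1 had a log2 fold change of -0.16 and PCK2 one of -0.33 with ISRIB alone. ASNS, at 47.0% GC, had -0.26.

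The effect of A8 under ISRIB was read by setting A8 with ISRIB against ISRIB alone; none of these libraries entered the first comparison. None of the 8 enzymes was called by edgeR, where 0.0128% of all genes were. At an unadjusted p under 0.05 there were 0 of 8, against 8.32% of all genes, and DESeq2 also called 0. ASNS was at 152, 147 and 150.5 CPM with A8 and ISRIB, against 131 and 140.0 CPM with ISRIB alone, a log2 fold change of 0.14 with an interval of -0.01 to 0.30. PCK2 was at 23.5, 22.5 and 25.1 CPM, against 19.9 and 20.4 CPM, a log2 fold change of 0.23 with an interval of -0.02 to 0.49. PYCR1 was at 165, 179 and 186 CPM with both, against 163 and 155 CPM with ISRIB alone, a log2 fold change of 0.15 with an interval of -0.02 to 0.32. In each of these 3 genes every library with A8 and ISRIB was above every library with ISRIB alone, as in 12.8% of all genes. With the GC trend removed PCK2 had 0.15 and PYCR1 0.07, where the Spearman correlation with GC content was 0.324. ALDH18A1 lay entirely below, at -0.03, as did 12.3%. GPT2 had a log2 fold change of 0.02 with an interval of -0.14 to 0.18. The upper bounds for ASNS and PCK2 lay below the 0.70 and 0.88 estimated without ISRIB. Those estimates have errors of their own, so this is no test of the difference, which the interaction given next is.

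The difference between both effects of A8 was tested by the interaction, which is negative where A8 did less under ISRIB. By edgeR it was called for 0 of 8 enzymes and for 0.0257% of all genes, while 3 of 8 enzymes and 8.48% of all genes had an unadjusted p under 0.05. ASNS had an interaction of -0.56 on the log2 scale (edgeR adjusted p = 0.0766, SE 0.10, interval -0.77 to -0.35), ranking 5 of all genes. PCK2 had -0.65 (edgeR adjusted p = 0.296, SE 0.16, interval -0.98 to -0.32) and GPT2 -0.31 (edgeR adjusted p = 0.452, SE 0.10, interval -0.52 to -0.10). The DESeq2 Wald test called ASNS and PCK2 (adjusted p = 0.000109 and 0.0328), as did edgeR without a filter on low counts (adjusted p = 0.00177 and 0.019), among 52 and 26 genes called in all. Neither was called in any fit that left out 1 library, with edgeR adjusted p from 0.0549 to 0.582 for ASNS and from 0.0859 to 0.983 for PCK2, the highest of both without the second ISRIB library. PYCR1 had an interaction of 0.08 with an interval of -0.14 to 0.30, and its log2 fold change with ISRIB was -0.20 in the presence of A8 and -0.28 in its absence. With the GC trend removed, which had a Spearman correlation of 0.451 with the interaction, these became -0.07, -0.23 and -0.16, so the interaction of PYCR1 turned its sign.

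**Figure D3:**
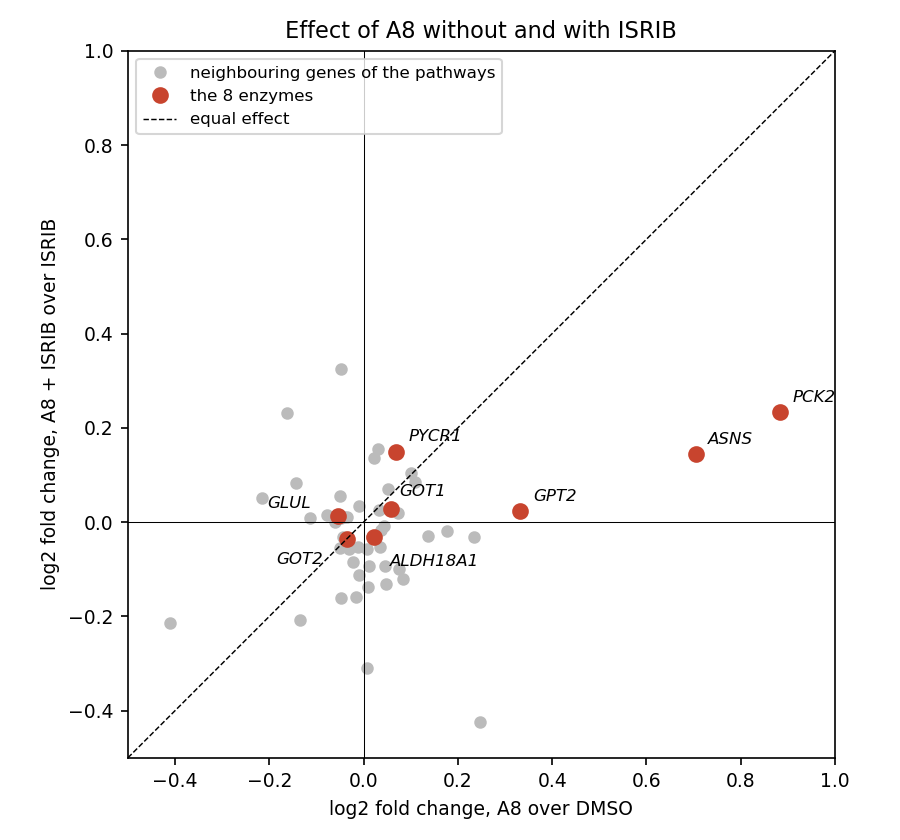
Log2 fold change of A8 over DMSO (x axis) against that of A8 with ISRIB over ISRIB alone (y axis) for the 8 enzymes (red) and the neighbouring genes of their pathways (grey), with FBP1 (115 counts in all, 1.69 on the y axis) not drawn. PCK2, ASNS and GPT2 lie furthest right of the enzymes and below the dashed line of equal effect, at 0.23, 0.14 and 0.02 on the y axis.

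Against plain DMSO, cells given both compounds had none of the 8 enzymes called by edgeR (0.0192% of all genes were), 0 at an unadjusted p under 0.05 (7.7% of all genes), and 0 by DESeq2. PCK2 lay lowest of the 8, at a log2 fold change of -0.22 with an interval of -0.44 to 0.01. PYCR1 had -0.14, GPT2 -0.13 and ASNS -0.07. In PCK2 and GPT2 all libraries with both compounds were below all DMSO libraries, which held in 6.57% of all genes. None lay entirely above, against 5.79%.

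The levels were also set per kilobase of merged coding-transcript exons (GENCODE 29, build GRCh38, whereas the counts were made on GRCh37), so that genes can be ranked roughly. With DMSO the order of CPM per kilobase was GOT2 (87.0), PYCR1 (84.4), ALDH18A1 (65.4), ASNS (63.3), GLUL (44.6), GOT1 (26.8), GPT2 (12.7) and PCK2 (8.61). GOT2 and PYCR1 overlapped across DMSO libraries, as did ALDH18A1 and ASNS, and the other neighbours in that order did not. With A8, ASNS came first at 103 ± 8 (SD, n = 3) CPM per kilobase, ahead of PYCR1 at 88.5 ± 6.8, and the nearest libraries of both stood at 97.0 and 96.3. PCK2, at 15.9 ± 2.9 CPM per kilobase with A8, came level with GPT2 at 16.0 ± 1.1, with overlapping libraries.

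The patterns over the 11 libraries were compared by the root mean square (RMS) difference of log2 CPM after centring each gene on its mean. ASNS and PCK2 differed by 0.17 and ASNS and GPT2 by 0.18. ASNS differed from PYCR1 by 0.27, and from GOT1, GOT2, GLUL and ALDH18A1 by 0.35 to 0.37. GPT2, however, was closer to PYCR1 (0.12) than to ASNS, and differed from GOT1 by 0.19 and from PCK2 by 0.32. Among the 10906 genes averaging 2 or more in log2 CPM, the 5 closest to ASNS were SESN2 (0.10), PSAT1 (0.12), STC2 (0.15), MTHFD2 (0.15) and TSC22D3 (0.16), where the median over all genes was 0.38. SESN2 restrains mTORC1, PSAT1 is an enzyme of serine synthesis, STC2 is a secreted glycoprotein, MTHFD2 a mitochondrial folate enzyme and TSC22D3 a glucocorticoid-inducible leucine zipper protein. The closest to PCK2 were STC2 (0.11), SESN2 (0.16), ASNS (0.17), DDIT4, an mTORC1 inhibitor (0.18), and CTH, which makes cysteine (0.22). The median for PCK2 was 0.52. GLUL was closest to BCR, AGPAT1, THRA, FAM122A and UBE2Q1, at 0.03 each, where the median was 0.12. These genes had log2 fold changes of -0.07 to -0.02 with A8. The RMS difference depends on the size of changes, so genes that vary little, as GLUL did, lie close to each other.

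**Figure D4:**
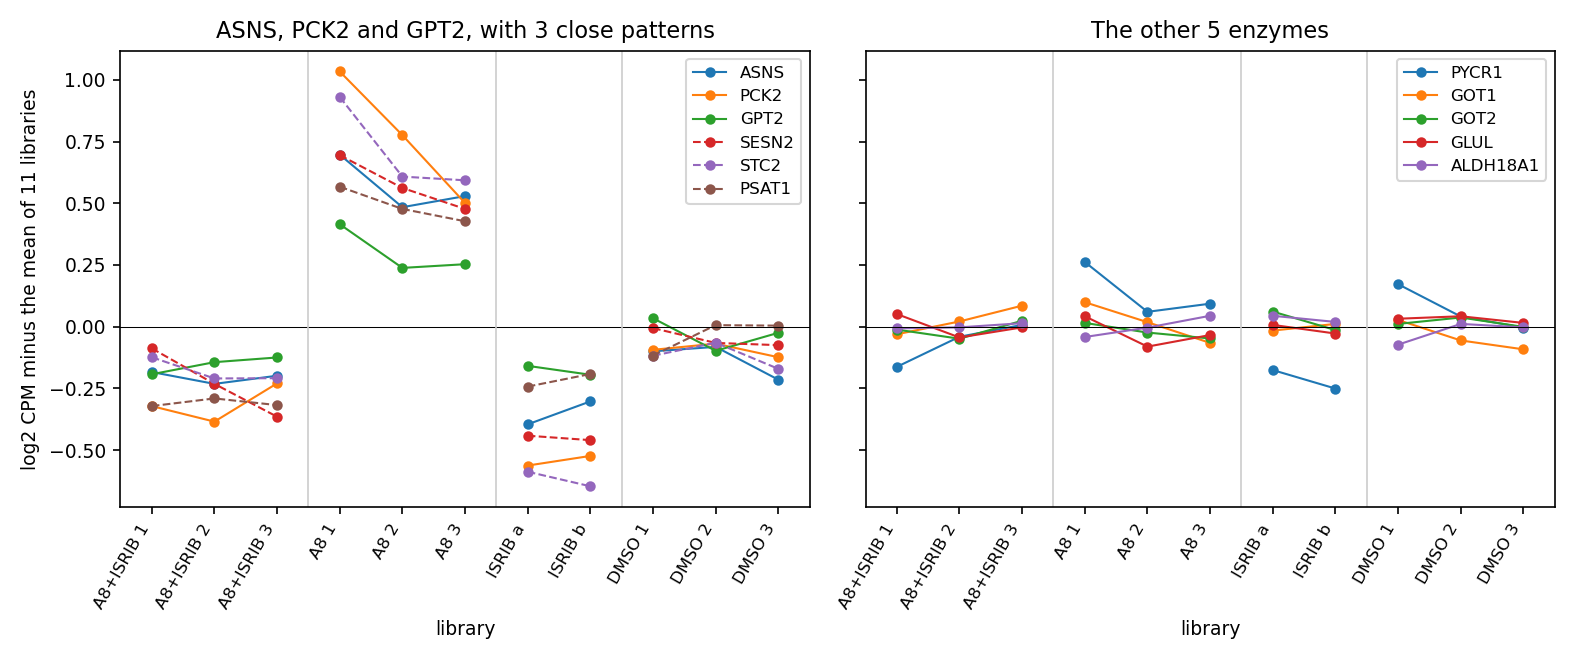
Log2 CPM minus the mean of the 11 libraries (y axis) in each library (x axis), left for ASNS, PCK2 and GPT2 with SESN2, STC2 and PSAT1 (dashed), right for the other 5 enzymes on the same scale. On the left all 6 genes stand above 0 in the 3 A8 libraries and below 0 in the 3 libraries with A8 and ISRIB, and on the right only PYCR1 leaves the band around 0 in several libraries.

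Neighbouring genes of these pathways were looked at in the same way. Of 56 further genes of asparagine, aspartate, glutamate, alanine, proline and PEP metabolism and of mitochondrial amino acid carriage, 47 were tested, and 0 were called in any of the 6 comparisons by edgeR. DESeq2 gave an adjusted p to only 41 to 43 of the 47, depending on the comparison. Among those it called 1, SLC25A22, in A8 with ISRIB against A8, and 0 in the other 5. With A8, 5 of the 47 had an unadjusted p under 0.05, against 10.2% of all genes, and their median log2 fold change was 0.01, with a range of -0.41 to 0.25. With A8 and ISRIB against A8 the median was 0.01 and 2 of 47 had an unadjusted p under 0.05, against 5.91% of all genes.

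In the list of asparagine, aspartate and glutamate genes the largest values with A8 were those of GAD1, which makes GABA from glutamate, at -0.41 (edgeR adjusted p = 0.393, SE 0.16), and ASS1, which uses aspartate to make argininosuccinate, at 0.18 (edgeR adjusted p = 0.472, SE 0.08). ASS1 averaged 42.0 ± 1.6 CPM with A8 and 37.1 ± 3.3 CPM with DMSO (SD, n = 3 each), and had -0.24 when ISRIB was added to A8. For proline and ornithine they were PRODH, which degrades proline, at 0.25 and a mean of 1.42 CPM with A8 against 1.19 CPM with DMSO, and PYCR3, listed under its older symbol PYCRL, at -0.22.

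Of alanine and pyruvate genes, the largest were LDHB, a lactate dehydrogenase subunit, at 0.14, and PDK1, which inhibits pyruvate dehydrogenase, at -0.05. Among genes around PEP and oxaloacetate, FBP1, of gluconeogenesis, had -0.34 on only 115 counts in all, and the mitochondrial malic enzyme ME2 had 0.11. Of the carriers, the ornithine carrier SLC25A15 had 0.23 with A8. The glutamate carrier SLC25A22 had -0.16 with A8 and 0.28 when ISRIB was added to A8 (edgeR adjusted p = 0.302, SE 0.07). SLC25A22 averaged 38.1 ± 1.4 CPM with A8 and 42.7 ± 0.7 CPM with DMSO (SD, n = 3 each), the opposite direction to ASNS.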

How the data were processed

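Polyadenylated RNA was sequenced from strand-specific libraries on a DNBSEQ instrument, per the labels' protocols. The authors deposited whole-number counts for each gene symbol. Their 3 comparison tables hold a base mean (signal), log2 fold change, Wald score and p-value for every gene, per the file headers. The build was GRCh37 and DESeq and DESeq2 were used, per the submitters' processing notes. Aligner, counting program and strand setting: not given in the sources used here.

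Samples were grouped by labelled treatment. The 2 ISRIB columns carry numbers that differ from the sample titles, so they were given to the group only. Genes were kept by filterByExpr, scaled with TMM and fitted together over 11 libraries with edgeR 4.0.16 (glmQLFit, glmQLFTest) in R 4.3.3, with Benjamini-Hochberg adjustment over 15591 genes. SEs come from the F statistic, and log2 CPM used a prior count of 2. Chi-square per degree of freedom between replicate pairs was 7.21 to 36.1, above sampling noise, so no library was a copy of another. The SEs and intervals rest on the spread between libraries and not on counting error alone. Alternatives were DESeq2 1.42.0, its size factors, other filters, the compared groups only, a replicate block and each library left out. Removal of the GC trend (lowess, span 0.3) was chosen after seeing the data.

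The enzymes, gene lists and tests were chosen with earlier results of these data known. The rule for names took the 8 enzymes, called neighbours, the 2 neighbours per list with the largest change with A8, and the 5 closest patterns to ASNS, PCK2 and GLUL. GPT, PCK1 and the PCK2 promoter were added after values were seen.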

Additional observations from a re-analysis of the deposited data

How the results depend on the processing

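Calls of ASNS and PCK2 with A8, and of ASNS, PCK2 and GPT2 when ISRIB was added to A8, held under all alternatives run, with log2 fold changes of 0.64 to 0.75, 0.74 to 1.01, -0.82 to -0.71, -1.23 to -0.96 and -0.49 to -0.40. The call of GPT2 came nearest to the threshold, at an edgeR adjusted p of 0.0486 with the replicate block. Numbers of genes called over the whole table depended on the test. With the DESeq2 Wald test, and with edgeR without a filter on low counts, they were 124 and 104 for A8 against DMSO (22 as reported), 50 and 14 for ISRIB alone against DMSO (0), 53 and 54 for A8 with ISRIB against A8 (28), 70 and 41 against ISRIB alone (2), 29 and 40 against DMSO (3), and 52 and 26 for the interaction (4), where both also called 2 enzymes in place of 0. Fitting only the groups compared gave 3 for ISRIB alone against DMSO, 1 for A8 with ISRIB against ISRIB alone and 0 against DMSO. With the GC trend removed 1 gene was called in A8 with ISRIB against ISRIB alone and 0 in the interaction. Leaving out 1 library gave 14 (without A8 1 or A8 2) to 20 genes for A8 against DMSO, 17 (without A8 1) to 33 for A8 with ISRIB against A8, 0 to 3 (without DMSO 1) for ISRIB alone against DMSO, 0 to 13 (without the third library with A8 and ISRIB) for A8 with ISRIB against ISRIB alone, 0 to 6 (without DMSO 1) against DMSO and 0 to 6 for the interaction, where 0 were called without A8 1, A8 2, DMSO 2, the second ISRIB library or either of the first 2 libraries with A8 and ISRIB.

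A replicate block over the groups with numbered columns gave 15 genes for A8 with ISRIB against A8 and 0 against DMSO, and changed no call of an enzyme. Same-numbered libraries had correlations of deviations of -0.133 to 0.138, and differently numbered libraries of -0.12 to 0.154. No shared effect of the number was seen, but so few correlations cannot show that the samples were not paired. No paired analysis was possible for comparisons with ISRIB alone because its 2 columns are numbered 1 and 2 while the titles are numbered 1 and 3, so fewer than 2 numbers can be matched with certainty.

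Of the refitted values of single enzymes 584 kept their direction and call, 7 passed the threshold in addition and 25 changed sign, each of a value that was not called. Leaving out 1 library moved ALDH18A1 to between -0.0032 and 0.0418 with A8 and to between -0.0049 and 0.0391 for both compounds against DMSO, and GOT2 to between -0.028 and 0.0453 with ISRIB alone. For A8 with ISRIB against A8 the ranges were -0.0365 to 0.0487 (GOT1), -0.0118 to 0.0249 (GOT2), -0.0026 to 0.0593 (GLUL) and -0.0192 to 0.0211 (ALDH18A1). For A8 with ISRIB against ISRIB alone they were -0.0017 to 0.0561 (GOT1) and -0.0128 to 0.0349 (GLUL), and for the interaction -0.0749 to 0.0119 (GOT1) and -0.039 to 0.0313 (GOT2). DESeq2 gave GOT2 an interaction of 2e-04. With the GC trend removed GOT2 had -0.0031 with ISRIB alone and an interaction of 0.0144, GPT2 had -0.0094 with A8 and ISRIB against ISRIB alone, and PYCR1 had an interaction of -0.0706. The causes were not tested.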
